A study of Drosophila melanogaster
Schmidtea mediterranea with 2 samples.

Results

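Isolated narrow H3K4me3 peaks are listed peaks of at most 300 bp that have no other peak on the same scaffold within 1000 bp of either edge. In the Mnase-ChIP peak list of planarian stem cells, 986 of 14553 peaks met this rule, or 6.78% (95% Wilson interval 6.38% to 7.20%). The members were thus chosen by measured width and spacing, so differences in either are given as descriptions, without a test. They were compared with the 10511 isolated wider peaks, which keep the same distance from other peaks but exceed 300 bp.

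The chromatin came from 800 K cells of the X1 gate of untreated adult Schmidtea mediterranea, mixed with 9.8 M cultured Drosophila S2 cells according to the series' design text. The study's methods give a somewhat lower number of S2 cells and describe the worms kept in the laboratory as an asexual strain. The X1 gate collects dividing planarian stem cells by their Hoechst stain and is set against lethally irradiated worms, so it holds a mixed population and not a single cell type. Micrococcal nuclease (Mnase) reduced the chromatin to mononucleosomes, and 1 H3K4me3 ChIP library and 1 input library were sequenced. There is no replicate of either library, so intervals given here cover counting error only. Neighboring peaks also share their surroundings, which makes these intervals too short to serve as tests. The list holds positions alone, without a score, a peak height or read numbers, and the depth behind a narrow peak is therefore unknown. The identity of the sorted cells could not be checked against marker genes from such a list.

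H3K4me3 is a histone mark of active promoters, where enzymes of the Set1 and MLL families place it on the nucleosomes just downstream of the transcription start site. A peak forms where marked nucleosomes are more frequent among the precipitated fragments than in their surroundings. Most promoters carry a mark that spans several neighboring nucleosomes, and broad marks extend into the gene body. A peak of at most 300 bp leaves room for very few nucleosomes. The list gives the outer limits of a peak, not the nucleosomes in it, so their number was not measured. Gene models and genome sequence of this assembly were not used here. Whether a member lies at a promoter, in a gene body or between genes was not tested, and no sequence is shown.

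The narrowest listed peak of any kind was 175 bp wide, so the members filled a range of widths from 175 to 300 bp. Their median width was 230 bp, and the middle 50% lay between 196 and 268 bp. Widths from 175 to 200 bp were held by 277 members, widths from 201 to 250 bp by 357, and widths from 251 to 300 bp by 352. The most frequent single width was 193 bp, with 18 members. In bins of 10 bp, widths from 181 to 190 bp held 110 isolated peaks. The bin before it is cut short at 175 bp and held 69 over 6 bp, or 11.5 per bp against 11.0 per bp. The number was lowest among the members from 251 to 260 bp, at 60 peaks, and stood at 80 from 291 to 300 bp. The next bins beyond the limit, from 301 to 310 bp and from 311 to 320 bp, held 80 and 89 isolated peaks. The limit of 300 bp thus cut through a continuous range of widths, and no gap set the members apart from slightly wider peaks.

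**Figure D1:**
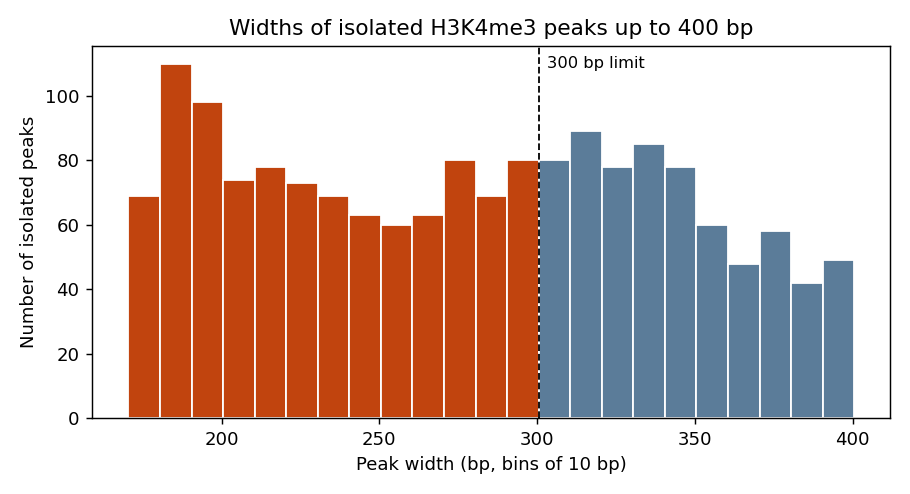
Number of isolated H3K4me3 peaks (vertical axis) by peak width in bp (horizontal axis, bins of 10 bp) up to 400 bp, with the 986 members in red and wider peaks in blue. No listed peak is narrower than 175 bp, so the first bin is cut short, the tallest full bin is 181 to 190 bp with 110 peaks, and the counts run on across the dashed 300 bp limit.

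The members made up 6.78% of the peaks but only 1.64% of the marked bases, with 229 kb of 14.0 Mb. Isolated wider peaks had a median width of 1050 bp and held 81.4% of the marked bases. Narrow peaks as a whole numbered 1694, of which 58.2% (55.8% to 60.5%) were isolated. Among the peaks over 300 bp this share was 81.7% (81.1% to 82.4%). The remaining 708 narrow peaks had another peak within 1000 bp, at a median distance of 284.5 bp. Their median width of 225 bp (221 to 231 bp) was close to the 230 bp (225 to 234 bp) of the members.

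Several members were singled out by position, on scaffolds named by their number in the dd_Smes_g4 assembly. The narrowest, 1 of 13 members of 175 bp, spanned positions 3455315 to 3455489 of scaffold 1 and lay 1040 bp from a preceding peak of 1326 bp. The widest, 1 of 7 members of 300 bp, spanned positions 33959 to 34258 of scaffold 13, with 33.0 kb to the preceding peak and 121 kb to the following peak. Just outside the width limit, positions 4824409 to 4824709 of scaffold 8 held an isolated peak of 301 bp. At the distance limit, the member with the closest neighbor was 222 bp wide and lay 1002 bp from a peak of 834 bp on scaffold 337, at positions 123184 to 123405. The narrow peak that missed the distance limit by the least, 203 bp wide at positions 7443805 to 7444007 of scaffold 1, lay 990 bp from a peak of 1509 bp.

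Although both kinds of peak had to clear 1000 bp, the members lay nearer to other peaks than isolated wider peaks did. The median edge-to-edge distance from a member to the nearest peak was 13.7 kb (12.5 to 15.1 kb, n = 984). For isolated wider peaks it was 25.3 kb (24.7 to 25.9 kb, n = 10469). The middle 50% of these distances ran from 5.83 to 30.4 kb for the members and from 12.4 to 43.6 kb for the wider peaks, so the ranges overlapped widely. Within 5 kb a neighbor was found for 214 of 984 members, or 21.7% (19.3% to 24.4%), against 9.50% (8.96% to 10.1%) of the isolated wider peaks. Within 10 kb the shares were 38.7% (35.7% to 41.8%) and 20.3% (19.5% to 21.1%). In the far tail the intervals of the 2 kinds overlapped. A nearest peak beyond 100 kb was found for 27 members, or 2.74% (1.89% to 3.96%), and for 3.28% (2.95% to 3.63%) of the isolated wider peaks.

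**Figure D2:**
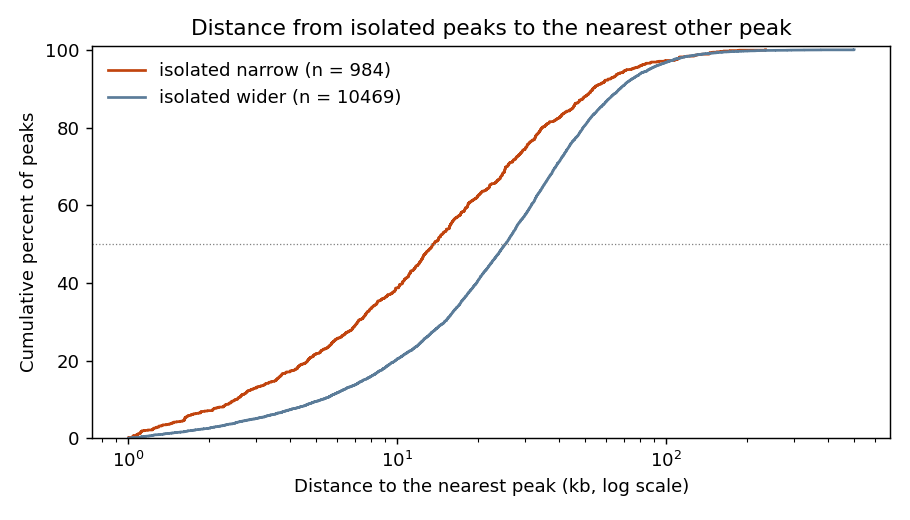
Cumulative percent of peaks (vertical axis) by distance to the nearest other peak in kb (horizontal axis, log scale), for 984 isolated narrow peaks in red and 10469 isolated wider peaks in blue; the dotted line marks 50%. The red curve crosses it at 13.7 kb and the blue curve at 25.3 kb, and both curves meet near 100 kb.

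The distances on both sides of the members were similar. The median was 27.4 kb (24.8 to 30.0 kb) to the preceding peak and 30.0 kb (26.5 to 33.5 kb) to the following peak, where preceding and following are the order along the scaffold and not the direction of a gene. The preceding peak was the nearer one for 52.2% (48.9% to 55.4%) of the 912 members with neighbors on both sides. To the farther neighbor, the median distance was 51.9 kb for the members and 65.7 kb for the isolated wider peaks. The stretch between the flanking peaks of a member had a median length of 70.5 kb (65.6 to 74.7 kb), against 97.6 kb (96.2 to 99.1 kb) around an isolated wider peak. Within this stretch, the nearer side took up a median of 23.3% (21.6% to 24.6%) of the unmarked distance for the members and 28.7% (28.3% to 29.1%) for the wider peaks. The members thus stood in shorter stretches and, within them, farther from the middle.

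A member's own neighbors could be other narrow peaks, so the distance was also taken to the nearest peak over 300 bp. It was 14.9 kb (13.5 to 16.3 kb) for the members and 27.6 kb (27.1 to 28.1 kb) for the isolated wider peaks. The unmarked sequence itself gives another reference. Of the 678 Mb between neighboring peaks that lay over 1000 bp from any peak other than a member, the median base was 20.1 kb from the nearest such peak, with quartiles of 9.18 and 39.4 kb. The 903 members with such a peak on both sides had a median of 13.9 kb (12.6 to 15.7 kb) and quartiles of 5.90 and 30.3 kb. Their median was thus below that of the unmarked bases over all 11365 stretches counted. These include stretches without a member and were not matched for length.

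The share of narrow peaks among isolated peaks fell with the distance to the nearest peak. Over all distances it was 8.58% (8.08% to 9.10%). Between 1 and 2 kb from the nearest peak it was 20.6% (16.6% to 25.2%), or 70 of 340 isolated peaks. It was 18.0% (14.2% to 22.5%) between 2 and 3 kb, 15.8% (12.9% to 19.0%) between 3 and 5 kb, and 12.9% (11.2% to 14.8%) between 5 and 10 kb. From 10 to 20 kb it was 9.93% (8.78% to 11.2%), from 20 to 50 kb 5.65% (5.01% to 6.37%), and from 50 to 100 kb 5.15% (4.21% to 6.27%). Beyond 100 kb, 27 of 370 isolated peaks were narrow, or 7.30% (5.06% to 10.4%), an interval that overlaps those of both preceding classes. Below the isolation limit, where no member can lie, 53 of the 201 peaks with a nearest peak at 700 to 1000 bp were narrow, or 26.4% (20.8% to 32.9%). This interval overlaps that of isolated peaks at 1 to 2 kb. Whether the share changes at 1000 bp was not tested.

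**Figure D3:**
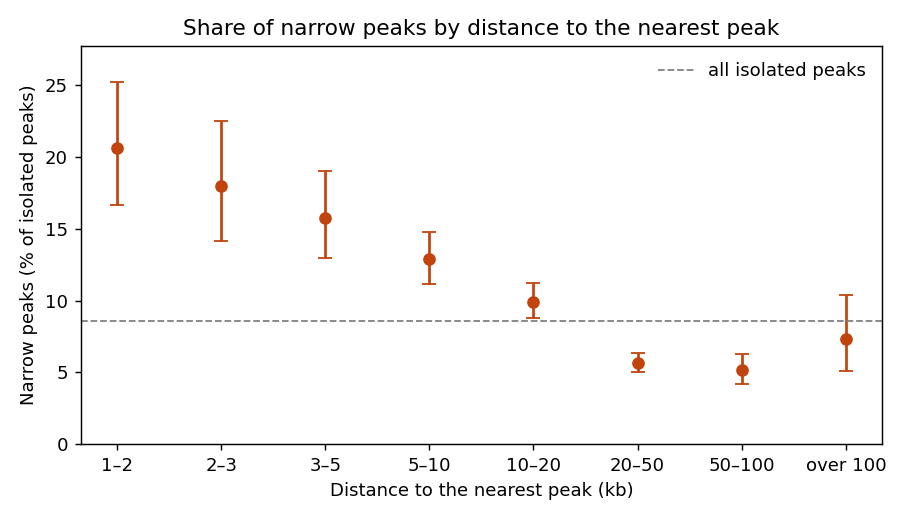
Percent of isolated peaks that are narrow (vertical axis) in classes of distance to the nearest peak in kb (horizontal axis), with 95% Wilson intervals as bars; the dashed line is the share over all isolated peaks, 8.58%. The share falls from 20.6% at 1 to 2 kb to 5.15% at 50 to 100 kb and is 7.30% beyond 100 kb.

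The width of the isolated peak and its distance to the nearest peak rose together only up to a width of about 1000 bp. The median distance was 12.9 kb (11.1 to 15.7 kb) for members of 175 to 200 bp, 13.5 kb (11.6 to 15.3 kb) for those of 201 to 250 bp and 14.8 kb (12.6 to 17.8 kb) for those of 251 to 300 bp. Just past the limit, isolated peaks of 301 to 350 bp had a median of 15.1 kb (13.0 to 17.9 kb), which overlaps the interval of each class of members. The median was 17.9 kb (15.5 to 22.5 kb) from 351 to 400 bp, 19.5 kb (17.5 to 21.1 kb) from 401 to 500 bp and 22.7 kb (21.0 to 24.4 kb) from 501 to 700 bp. From 701 to 1000 bp it was 26.0 kb, and the 3 wider classes lay between 26.5 and 27.0 kb. Among the members alone, width and distance were almost unrelated, with a Spearman rho of 0.04 over 984 peaks of the same library. The members were the low end of a gradient of spacing that continued above 300 bp.

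**Figure D4:**
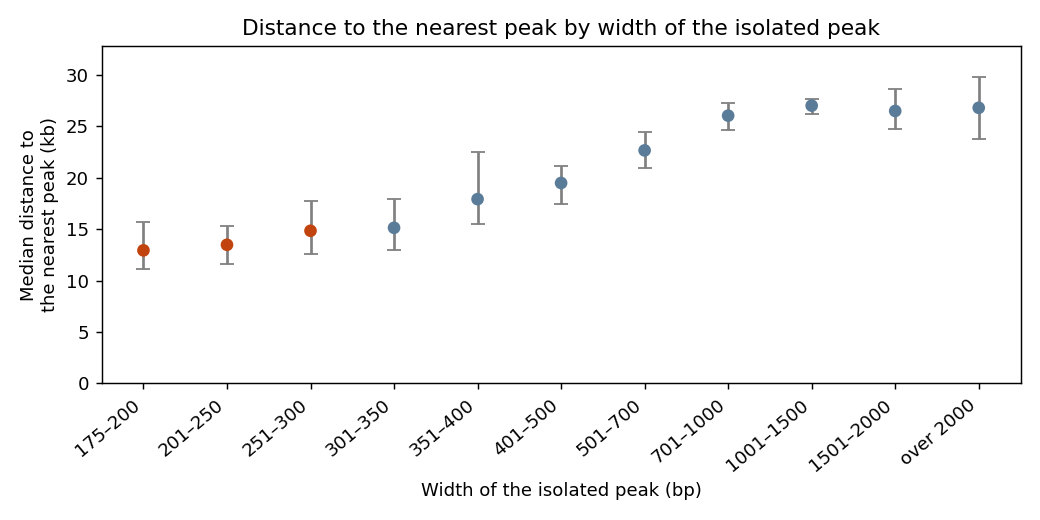
Median distance to the nearest peak in kb (vertical axis) for isolated peaks in classes of width in bp (horizontal axis), with 95% order-statistic intervals as bars; members are red and wider peaks blue. Medians rise from 12.9 kb in the narrowest class to 26.0 kb at 701 to 1000 bp and then stay level, with no step at 300 bp.

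The peaks nearest to the members were ordinary in width. Their median width was 971 bp (931 to 1014 bp), against 951 bp (939 to 961 bp) for the peaks nearest to isolated wider peaks, and the intervals overlapped. The width of this neighbor was not part of the rule, but peaks of 1 library are not replicates of a condition, so no test was made. The nearest peak was itself narrow for 104 of 984 members, or 10.6% (8.80% to 12.6%), and for 11.8% (11.2% to 12.4%) of the isolated wider peaks. It was at least 2000 bp wide for 39 members, or 3.96% (2.91% to 5.37%), and for 3.68% (3.33% to 4.06%) of the isolated wider peaks. Nearest peaks that belonged to a close group, with a peak of their own within 1000 bp, made up 10.4% (8.61% to 12.4%) for the members and 10.2% (9.62% to 10.8%) for the wider peaks. For each of these measures the interval of the members overlapped that of the wider peaks.

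The closest members had neighbors about as wide as those of members farther away, but wider than the neighbors of equally close isolated wider peaks. For the 70 members with a peak at 1 to 2 kb, the nearest peak had a median width of 1000.5 bp, and for those with a peak at 20 to 50 kb it was 998 bp. Over the members the Spearman rho between distance and neighbor width was 0.03. Isolated wider peaks with a neighbor at 1 to 2 kb had a nearest peak of 630.5 bp in the median, and those at 20 to 50 kb one of 992 bp. At 2 to 3 kb the medians were 963.5 bp for the members and 690 bp for the isolated wider peaks. At 3 to 5 kb they were 923 and 728.5 bp. Among the 270 isolated wider peaks with a neighbor at 1 to 2 kb, the nearest peak was a member for 56, or 20.7% (16.3% to 26.0%). For narrow peaks that were not isolated, the nearest peak lay within 1000 bp and was thus never isolated itself. It had a median width of 772 bp (701 to 829 bp) and was narrow in 19.5% (16.7% to 22.6%) of cases. These values cannot be set against those of the members, whose nearest peaks were mostly isolated. The like reference would be wider peaks that were not isolated, and their nearest peaks were not summarized.

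Members had another member beside them along the scaffold about as often as isolated wider peaks had one. Of all members, 859 had no other member as a direct neighbor. There were 52 runs of 2 members and 6 runs of 3, and with the longest run 127 of the 986 members, or 12.9% (10.9% to 15.1%), had another member as a direct neighbor. For isolated wider peaks a member was a direct neighbor in 14.2% (13.6% to 14.9%) of cases, an interval within that of the members. Over all listed peaks it was 12.6% (12.0% to 13.1%), but these include peaks with a neighbor within 1000 bp, which cannot be a member. The nearest peak was a member for 80 members, or 8.13%, against 9.32% of the isolated wider peaks. Of these 80, 56 formed 28 pairs that were each other's nearest. The longest run held 5 members and lay on scaffold 33 between positions 4781423 and 4946771. Their widths, in order, were 293, 275, 205, 245 and 195 bp, and the distances between them were 21.3, 7.51, 119.6 and 15.7 kb. The run was flanked by a peak of 613 bp at a distance of 68.9 kb and by a peak of 322 bp at 79.5 kb. Between these flanking peaks, over 314 kb, the 5 members were the only listed peaks.

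At the other extreme, single members stood far from any peak. The most isolated member, 226 bp at positions 539388 to 539613 of scaffold 22, had 322 kb to the preceding peak of 981 bp and 235 kb to the following peak of 351 bp. On scaffold 6 a member of 294 bp, at 5014273 to 5014566, was 187 kb from a peak of 1014 bp and 351 kb from one of 1498 bp. A member of 193 bp on scaffold 249, at 438027 to 438219, lay 164 kb from a peak of 1472 bp and 173 kb from one of 211 bp. The remaining members among the 5 most isolated were 191 bp wide on scaffold 53, at 3320211 to 3320401, and 214 bp wide on scaffold 7, at 1638989 to 1639202. Their nearest peaks were 160 and 155 kb away. On 2 scaffolds, 336 and 480, the member was the only listed peak, with widths of 201 and 262 bp. These have no measured distance and count as isolated only because no other peak is listed on their scaffold. The member on scaffold 480 starts at position 447, so less than 1000 bp of the scaffold precedes it.

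The number of other peaks around the members was also higher. Within 10 kb of the center, 63.3% (60.2% to 66.2%) of the members had no other peak, against 82.0% (81.3% to 82.8%) of the isolated wider peaks. Within 50 kb the mean was 2.12 other peaks for the members and 1.69 for the wider peaks, and within 100 kb it was 4.11 and 3.64. The gap between the kinds was thus largest, as a ratio, at short range, where the means were 0.477 and 0.215 within 10 kb.

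The 986 members were spread over 265 of the 449 scaffolds with a peak, and the 10511 isolated wider peaks over 430. A smaller set of peaks can reach fewer scaffolds, so these counts are not compared as a result. The 184 scaffolds without a member were mostly short of peaks, with a median of 3 peaks each, and together held 1180 peaks. Scaffolds with a member held a median of 33 peaks. On 80 scaffolds there was a single member, and the 17 scaffolds with at least 10 members held 233 of the 986. The 56 scaffolds richest in members held 50% of them, against 50 scaffolds for the isolated wider peaks. Both kinds were thus concentrated to a similar degree on a minority of the 449 scaffolds. Over the length between the first and last peak of each scaffold, there were 1.37 members and 14.6 isolated wider peaks per Mb. Members were first, last or the only peak of a scaffold in 7.51% (6.02% to 9.32%) of cases, and isolated wider peaks in 6.17% (5.73% to 6.65%). The true distance to the next peak is unknown for these, since the scaffold may end before it.

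Across the 185 scaffolds that spanned at least 1 Mb between their first and last peak, the median was 1.30 members per Mb, with quartiles of 0.879 and 1.87, and 10 of these scaffolds had none. The share of narrow peaks among isolated peaks varied little with how densely a scaffold was marked. With these scaffolds ranked by peaks per Mb and cut into 4 classes, from sparse to dense, it was 9.10%, 8.003%, 8.13% and 8.57%, with overlapping intervals. By the number of peaks on a scaffold, it was 9.47% (7.22% to 12.3%) with 1 to 9 peaks, 10.3% (8.66% to 12.2%) with 10 to 24, 10.7% (9.37% to 12.1%) with 25 to 49 and 8.76% (7.85% to 9.76%) with 50 to 99. With 100 to 199 peaks it was 6.85% (5.999% to 7.82%) and with 200 or more 7.32% (6.13% to 8.72%). Both classes with at least 100 peaks had lower shares than the others, a description over classes without a test. The interval at 200 or more peaks overlaps those at 1 to 9, 10 to 24 and 50 to 99. That at 100 to 199 overlaps that at 1 to 9.

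**Figure D5:**
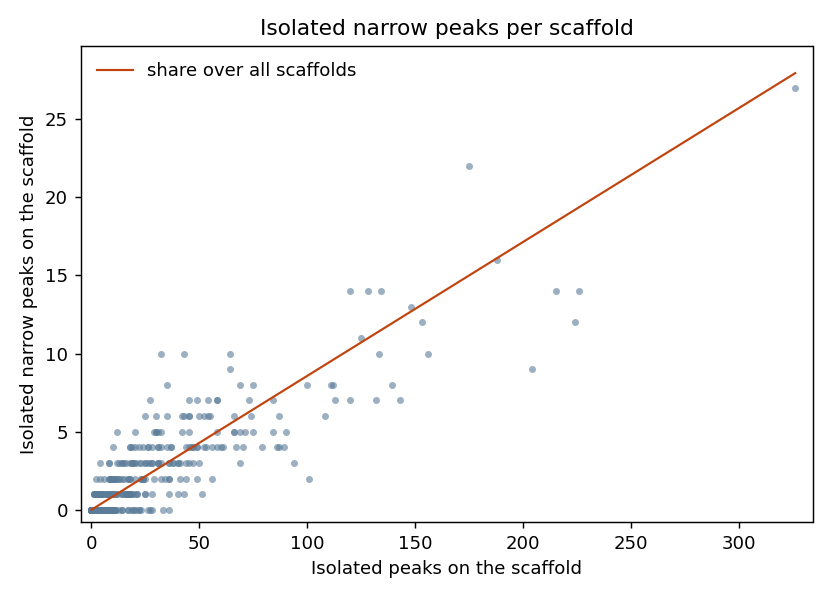
Isolated narrow peaks (vertical axis) against all isolated peaks (horizontal axis), 1 point for each of 449 scaffolds; the line is the share over all scaffolds, 8.58%. The scaffold with the most members, with 27 of 326 isolated peaks, lies close to the line.

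The distances were also compared within scaffolds, which holds the mean density of marking equal but not the local density around a peak. On each of the 70 scaffolds with at least 5 members and at least 5 isolated wider peaks, the median distance to the nearest peak was taken for both kinds. It was shorter for the members on 62 scaffolds, longer on 7 and equal on 1. The median over scaffolds was 13.1 kb for the members and 25.1 kb for the wider peaks, and the median of the differences, members minus wider peaks, was -12.6 kb (-13.8 to -9.87 kb). The nearest peak was wider beside the members than beside the wider peaks on 45 of the 70 scaffolds. Over all scaffolds, however, the medians of these widths were within counting error of each other, as given above.

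Scaffold 1 held the most members, 27 of its 326 isolated peaks, or 8.28% (5.75% to 11.8%), which is close to the share over all scaffolds. They lay along its whole marked length of 17.7 Mb, from position 536112 to position 17706192, with widths from 175 to 294 bp. Their distances to the nearest peak ran from 1.04 to 53.5 kb, with a median of 10.5 kb. Among scaffolds with at least 10 isolated peaks, the share was highest on scaffold 194, with 5 of 12, or 41.7% (19.3% to 68.0%). Its members were 254, 280, 190, 300 and 181 bp wide and lay 14.8, 77.2, 45.4, 7.03 and 2.64 kb from their nearest peaks. With 12 isolated peaks, this share rests on few counts and was picked as the highest of 235 scaffolds. The median share over these 235 scaffolds was 8.33%, with quartiles of 5.56% and 12.5%, and 25 of them had no member.

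Scaffold 189 was singled out after its values had been seen, as the scaffold of at least 1 Mb with the most members per Mb, 9.64 against 5.96 on the next one. Of its 32 isolated peaks, 10 were narrow, or 31.2% (18.0% to 48.6%). These members were 180 to 297 bp wide, and 7 of the 10 had another peak within 5 kb. The same held for 10 of the 22 isolated wider peaks of this scaffold, or 45.5%, against 9.50% over all scaffolds. For several of these 10 the nearest peak was a member, and the scaffold was picked for its many members. The closeness of the wider peaks is therefore not independent of that choice. The members' median distance to the nearest peak was 2.47 kb, with a range from 1.25 to 19.3 kb. The isolated wider peaks of this scaffold had a median of 6.50 kb. One of these members, 180 bp at positions 838090 to 838269, lay 1.59 kb from a peak of 3542 bp, the widest of the scaffold. The next members along the scaffold, 290 bp at 840583 to 840872 and 233 bp at 846080 to 846312, followed at 2.31 and 5.21 kb from the member before them. Reads of repeated sequence, and reads of the S2 cells placed on planarian sequence, were not tested as sources of the members, here or elsewhere.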

How the data were processed

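The authors used bowtie2 to align the Mnase-ChIP reads to the Rink lab planarian assembly and MACS2 to call peaks. Tool versions, MACS2 options and the use of the input as control are not given in the sources used here. The deposited list has 14553 lines with a scaffold, a start and an end in bp, 0 duplicates and 0 overlaps. Width is end minus start, with the start counted from 0. Printed positions are counted from 1. Distances run from edge to edge.

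Members, comparisons and alternatives were chosen with earlier results of these data known. Regions were named by fixed rules: the 5 most isolated members, the narrowest and widest, those at each limit, the longest run, and the scaffolds with the most members and the highest share. Medians have 95% order-statistic intervals and shares have 95% Wilson intervals. Python 3.11.15, numpy 2.4.6, pandas 2.3.3, scipy 1.17.1 and matplotlib 3.10.9 were used. The rule was tested on simulated lists. Alternatives changed the width limit, the distance, and the peaks or scaffolds kept.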

Additional observations from a re-analysis of the deposited data

How the results depend on the processing

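Under all 12 alternatives, the members' median distance to the nearest peak was below that of the isolated wider peaks, with intervals apart and a ratio of wider to narrow between 1.49 and 2.11. The median widths of their nearest peaks had overlapping intervals under all 12. All 12 were chosen with earlier results of these data known, and 2 of them were added to the planned ones after seeing the data. Each alternative re-cut the same list of 1 library, so they are not independent of each other. Intervals that lie apart are not a test here.

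With a width limit of 250 bp there were 634 members, or 5.51% of isolated peaks, and the nearest peak was narrow for 6.16% of members and 7.69% of wider peaks. With 350 bp the shares were 12.1%, 15.9% and 15.96%. With 400 bp there were 1653 members, the shares were 14.4%, 18.1% and 18.7%, and the wider peaks' median distance was 25.9 kb. These shares follow from the limit, which also defines a narrow neighbor.

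With an isolation distance of 500 bp, the median distances were 11.5 kb for members and 24.2 kb for wider peaks, and 9.32% of isolated peaks were narrow. With 2000 bp they were 15.3 and 26.1 kb. With 5000 bp they were 18.8 and 28.0 kb, 7.50% of isolated peaks were narrow, and the wider peaks' nearest peak had a median width of 965 bp and was narrow in 10.7%.

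With only peaks of at least 200 bp, 6.46% of isolated peaks were narrow, the nearest peak was narrow for 8.32% of members and 8.97% of wider peaks, and the wider peaks' median distance and neighbor width were 25.9 kb and 967 bp. With neighbors required on both sides, the wider peaks' median distance was 24.4 kb.

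On scaffolds of at least 200 peaks, an alternative chosen after seeing the data, 114 members on 7 scaffolds made up 7.32% of isolated peaks. Their median distance was 9.98 kb against 19.2 kb for wider peaks, whose nearest peak had a median width of 985 bp. The nearest peak was narrow for 7.89% of members and 10.2% of wider peaks. No value moved beyond its interval, or its count by over 1.5 times, without scaffold 1 (also chosen after seeing the data), on scaffolds with at least 10 peaks, or with peaks up to 200 bp apart merged.

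A stricter peak threshold was not run, since the list holds no score, and overlap with genes was not run, since no annotation of the assembly was used. No paired analysis was possible because there is 1 library per condition and no test between groups. The list gives no depth, so how deeply a narrow peak was sampled is unknown.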
